A study of Mus musculus with 6 samples.

Results

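The Bcl2 family decides whether the mitochondrial outer membrane is opened during apoptosis. Its pro-survival proteins, such as Bcl2, Bcl2l1 (Bcl-xL) and Mcl1, hold back the pore-forming effectors Bax and Bak1, and the BH3-only proteins, such as Bad, Bid, Bcl2l11 (Bim), Bbc3 (Puma) and Pmaip1 (Noxa), release or activate those effectors. In the mammary gland Bcl2l1 and Mcl1 are known to keep secretory epithelium alive, while Bax and Bcl2l11 are known to promote the loss of alveolar cells after weaning. The members described here were chosen by name, as every probe set whose platform annotation gives exactly 1 gene symbol that is one of 10 listed symbols. This rule found 29 of the 45101 probe sets on the array, for 9 of the 10 genes. They are 15 probe sets of the pro-survival genes, 2 of the effector Bak1 and 12 of BH3-only genes. Bax was not analysed here, because the annotation used pairs no probe set with its symbol, alone or beside others.

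RNA from the inguinal gland of 3 Rac1-/- and 3 WT mice was hybridized to Affymetrix mouse arrays, 1 for each animal, after 2 days of involution. Rac1-/- mice were Rac1fx/fxYFP;WAPiCreTg/•, so that the whey acidic protein promoter drove Cre in luminal epithelial cells, while stromal and myoepithelial cells kept Rac1. WT mice were Rac1fx/fxYFP animals without Cre, so both groups carried the floxed Rac1 alleles and the YFP reporter, and only the Rac1-/- group carried Cre. The groups were age matched, and neither the age nor the number of earlier litters of these mice is given in the labels. In values from whole glands, fewer cells of a type and less RNA per cell cannot be told apart.

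Values are log2 intensities after quantile normalization between arrays, with Rac1-/- mice in the order Nas496, Nas497, Nas518 and WT mice in the order Nas478, Nas483, Nas484. The log2 interquartile range of the deposited intensities ran from 1.23 to 1.98 over the Rac1-/- arrays and from 1.42 to 2.85 over the WT arrays. For the actin control probe sets, log2 intensity at the 3' end minus that at the 5' end was taken on each array. It was -0.42, -1.24 and -0.30 on the Rac1-/- arrays and 0.048, 0.033 and -0.17 on the WT arrays, and the groups do not overlap. The same difference for Gapdh was -0.044, 0.18 and -0.058 on the Rac1-/- arrays and -0.037, 0.016 and 0.16 on the WT arrays, and there the groups overlap. Secretory markers of the gland were present in both groups, none of 12 at the floor of the scale, and their mean log2 intensity was 12.7, 11.7 and 12.3 in Rac1-/- glands against 13.9, 13.9 and 13.7 in WT glands. Luminal keratin and junction markers averaged 9.85, 9.78 and 9.62 in Rac1-/- glands and 9.49, 9.44 and 9.29 in WT glands. After quantile normalization the means of both lists separate the groups, in opposite directions. These means were not computed under another scaling. Krt18 was the 1 keratin or junction marker whose groups did not overlap. Its deposited intensities, 2064, 925 and 1278 in Rac1-/- and 1755, 1195 and 700 in WT glands, do overlap. All 12 secretory markers had a fold change below 0, while of the 5 keratin and junction markers 3 lay above and 2 below 0. Macrophage markers averaged 8.98, 7.999 and 8.65 in Rac1-/- glands and 8.12, 8.03 and 7.61 in WT glands, and the groups overlap. Of these markers 10 of 11 genes had a fold change above 0. Of all 18193 genes, 9801 lay above and 8392 below 0. The marker counts were made after quantile normalization only. The actin difference separates the groups, so a model that holds both cannot cleanly tell its part from that of genotype. Values given below with the actin difference in the model carry this limit. The part of RNA quality or of these cell types in the values below was not tested. The bright probe sets of Rac1 itself had log2 fold changes of 0.19 (SE 0.47) and -0.80 (SE 0.51) with overlapping groups. Which exons Cre removes was not found in the sources read, so these probe sets may lie outside the deleted part and do not check the labels.

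No probe set of the Bcl2 family differed between Rac1-/- and WT glands at an adjusted p under 0.05 in limma, against 0% of the 45037 probe sets tested. The lowest adjusted p among the members was 0.948. With 3 mice per group a count of 0 does not show that the genes were unchanged, and the intervals given with the values show how large a difference remains possible. At an unadjusted p under 0.05, 1 member was higher and 1 lower in Rac1-/- glands, both of them probe sets of Bid, against 1.88% of all probe sets higher and 2.17% lower. Every Rac1-/- value lay above every WT value for 3 members, 2 of Bcl2l1 and 1 of Bid, against 4.59% of all probe sets. Every Rac1-/- value lay below every WT value for 1 member, another probe set of Bid, against 4.86% of all probe sets. Together these 4 of 29 members stand beside 9.45% of all probe sets. The count was 7 without the WT mouse Nas483 (15.2% of all probe sets) and 8 without the WT mouse Nas484 (29.8%). It was 10 without both Nas484 and Nas497 (39.5%).

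The split of the family above and below 0 depended on the scaling. The log2 fold change was above 0 for 14 and below 0 for 15 of the 29 probe sets, with a median of -0.19, beside a median of -0.011 over all probe sets tested, of which 49.3% lay above 0. With arrays scaled to a common median 8 members lay above and 21 below 0, with all 6 probe sets of Mcl1 below, a median of -0.42 and 46% of all probe sets above 0. Without normalization 15 lay above and 14 below, beside 66.4% of all probe sets above 0. When the actin 3' to 5' difference entered the model 18 lay above and 11 below with a median of 0.39, and without the Rac1-/- mouse Nas497 the median was 0.15. When each gene stood as its brightest probe set, the fold change was above 0 in 7 genes and below 0 in 2, and their median was 0.17. Over all 18193 genes counted in the same way, 9801 lay above 0 and the median was 0.060. Among the pro-survival probe sets 8 lay above and 7 below 0, and among the effector and BH3-only probe sets 6 lay above and 8 below.

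**Figure D1:**
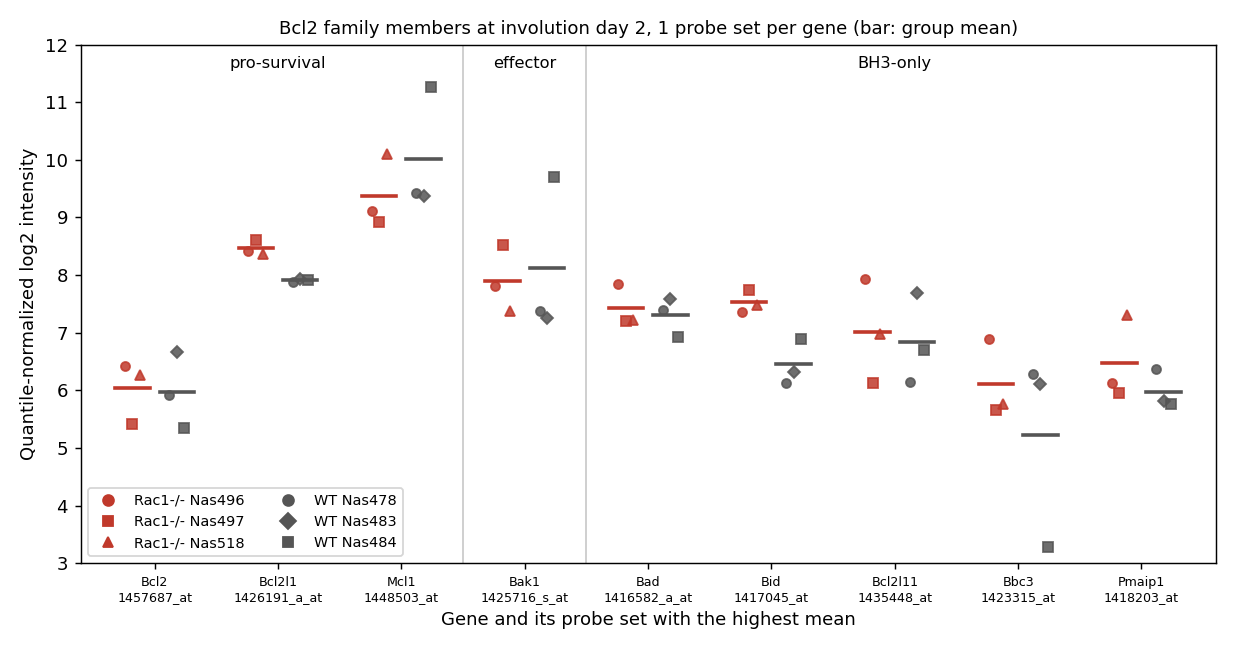
Quantile-normalized log2 intensity of 9 Bcl2 family genes at involution day 2, on the probe set of each gene with the highest mean, in 3 Rac1-/- mice (red, left) and 3 WT mice (grey, right), grouped by role. Each point is 1 mouse and each bar a group mean, and the groups are apart only for Bcl2l1 (8.46 against 7.91) and Bid (7.53 against 6.45), of which Bcl2l1 turns to the other direction with arrays scaled to a common median.

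Bid, the BH3-only protein that links death receptors to mitochondria once caspases have cut it, had the members with the smallest p, and its probe sets differed in direction. On 1417045_at the log2 intensity was 7.36, 7.74 and 7.48 in Rac1-/- glands, against 6.13, 6.32 and 6.90 in WT glands. The lowest Rac1-/- mouse was thus above the highest WT mouse, Nas484. The means were 7.53 ± 0.19 (SD, n = 3) in Rac1-/- and 6.45 ± 0.40 (SD, n = 3) in WT glands. The log2 fold change was 1.08 (SE 0.46, 95% confidence interval from 0.020 to 2.13, limma adjusted p = 0.948). It was 0.78 with arrays scaled to a common median, 1.25 without normalization and 0.77 when the actin 3' to 5' difference entered the model. Without single mice it lay between 0.84 and 1.35, and without both Nas484 and Nas497 it was 1.41. Leaving out any mouse but Nas484 took the unadjusted p above 0.05.

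A dim probe set of Bid went the other way. On 1447873_x_at the Rac1-/- glands had 1.58, 1.12 and 1.85 and the WT glands 3.45, 6.02 and 4.17, so every Rac1-/- value was below every WT value. The log2 fold change was -3.03 (SE 0.70, 95% confidence interval from -4.64 to -1.42, limma adjusted p = 0.948). Its mean lay at the 2.01st percentile of all probe sets, near the bottom of the scale, and an ID ending in x_at marks a probe set that can cross-hybridize. As deposited, before normalization between arrays, it had intensities of 1.81, 4.19 and 4.22 in Rac1-/- and 2.01, 48.4 and 26.1 in WT glands. There the WT mouse Nas478 lay among the Rac1-/- mice, so the groups overlap in the deposited values. With a floor of 10 in place of 1 the log2 fold change was -1.23, and over the alternatives run on it the value ran from -3.53 to -1.23. The remaining probe set of Bid, 1448560_at, had 6.36, 5.80 and 5.72 in Rac1-/- and 5.92, 6.07 and 5.71 in WT glands, a log2 fold change of 0.058 (SE 0.45) with overlapping groups. Its deposited intensities, 76.9, 81.1 and 62.3 in Rac1-/- and 39.1, 50.6 and 62.1 in WT glands, did not overlap, by a narrow margin. The difference between the probe sets of Bid was not tested.

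Bcl2l1, the pro-survival protein whose transcript is also spliced to a shorter pro-apoptotic form, had the other members whose groups did not overlap. On 1426191_a_at it had 8.42, 8.62 and 8.36 in Rac1-/- glands and 7.88, 7.93 and 7.92 in WT glands, and the 3 WT mice lay close together. The Rac1-/- glands averaged 8.46 ± 0.14 (SD, n = 3) and the WT glands 7.91 ± 0.024 (SD, n = 3), and the log2 difference was 0.55 (SE 0.43, limma adjusted p = 0.948) that turned to -0.28 with arrays scaled to a common median. The deposited intensities were 365, 241 and 292 in Rac1-/- and 284, 284 and 216 in WT glands, and these overlap. On 1420888_at the log2 values were 7.10, 7.76 and 7.57 in Rac1-/- glands and 6.27, 6.85 and 6.46 in WT glands. The difference was 0.95 (SE 0.46, limma adjusted p = 0.948), and it was 0.49 with a common median and between 0.75 and 1.11 without single mice. Its direction did not turn under any of the alternatives run on it. The last pair overlapped between groups, with log2 fold changes of 0.46 (SE 0.71) on 1420887_a_at, which was -0.22 with a common median, and -0.37 (SE 0.62) on 1426050_at. Which splice form each probe set measures was not found in the sources read.

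**Figure D2:**
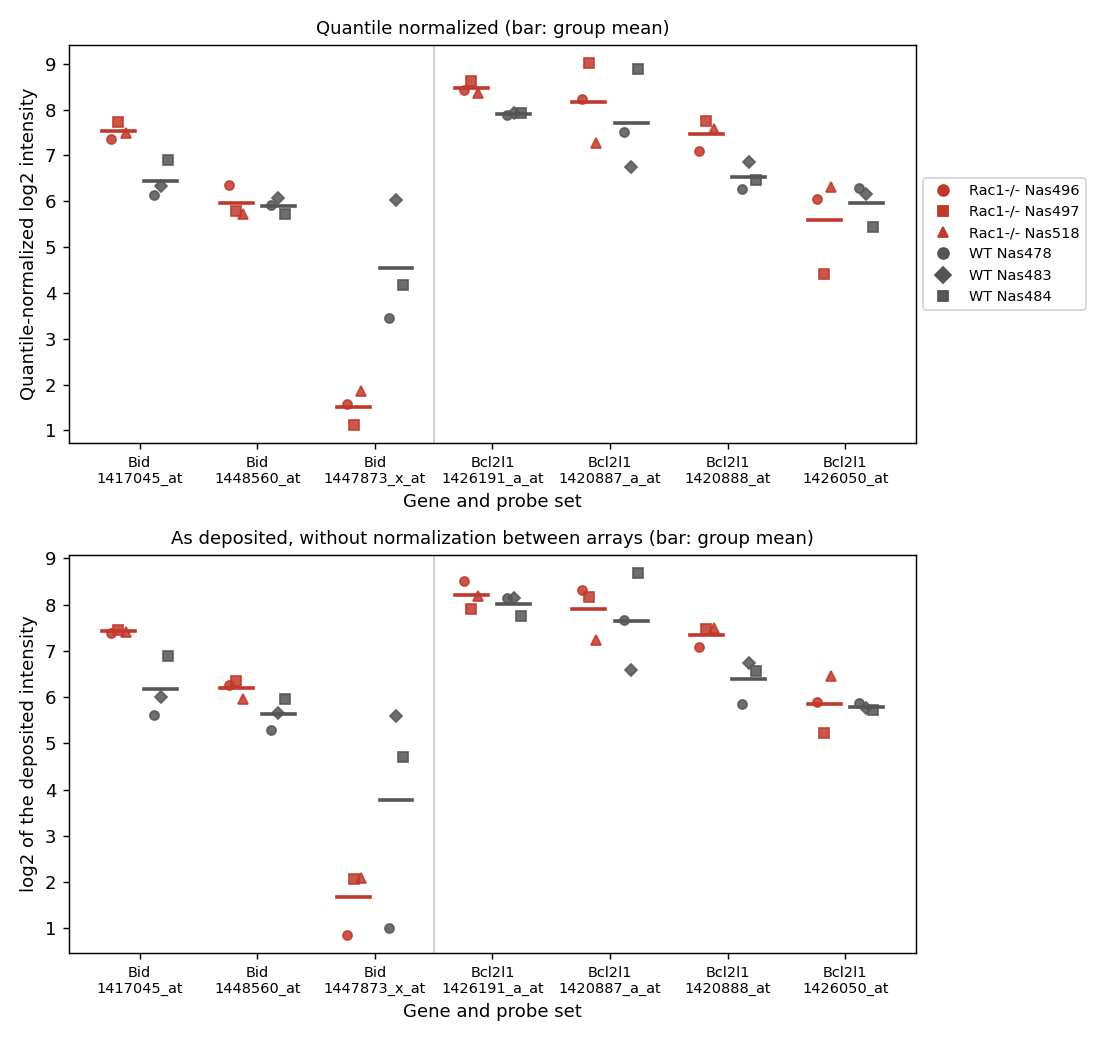
Log2 intensity of 3 probe sets of Bid and 4 of Bcl2l1 in 3 Rac1-/- mice (red, left) and 3 WT mice (grey, right), after quantile normalization (upper panel) and as deposited (lower panel). Each point is 1 mouse and each bar a group mean. For Bid 1447873_x_at the groups are apart in the upper panel only, and the same holds for Bcl2l1 1426191_a_at, with group means there of 8.46 and 7.91.

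Mcl1, a short-lived pro-survival protein, had 6 probe sets that disagreed on which mice were high. On 1448503_at the values were 9.12, 8.92 and 10.10 in Rac1-/- and 9.42, 9.37 and 11.26 in WT glands, with Nas484 the highest. The means were 9.38 ± 0.63 (SD, n = 3) in Rac1-/- and 10.02 ± 1.08 (SD, n = 3) in WT glands, and the log2 difference was -0.64 (SE 0.66, limma adjusted p = 0.949). It was 0.22 without both Nas484 and Nas497, and -1.65 with a common median. On 1416881_at the values were 9.46, 9.25 and 9.81 in Rac1-/- and 9.51, 9.55 and 10.04 in WT glands, a log2 fold change of -0.19 (SE 0.45).

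The 3 Mcl1 probe sets whose IDs end in x_at showed another order of mice. On 1437527_x_at the values were 9.85, 7.42 and 9.36 in Rac1-/- glands and 10.46, 10.41 and 8.56 in WT glands. On 1456381_x_at they were 8.49, 5.10 and 7.59 in Rac1-/- and 9.22, 8.97 and 6.62 in WT glands. Nas497 was the lowest of the Rac1-/- mice and Nas484 the lowest of the WT mice on all 3 of them, while Nas484 was the highest of all mice on the other 3. Their log2 fold changes were -0.93 (SE 0.80), -1.21 (SE 1.01) and, for 1456243_x_at, -0.35 (SE 0.95), all with overlapping groups, and they turned to 0.78, 1.07 and 1.22 when the actin 3' to 5' difference entered the model. The remaining probe set, 1416880_at, gave 0.11 (SE 0.54), and -0.90 with a common median.

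**Figure D3:**
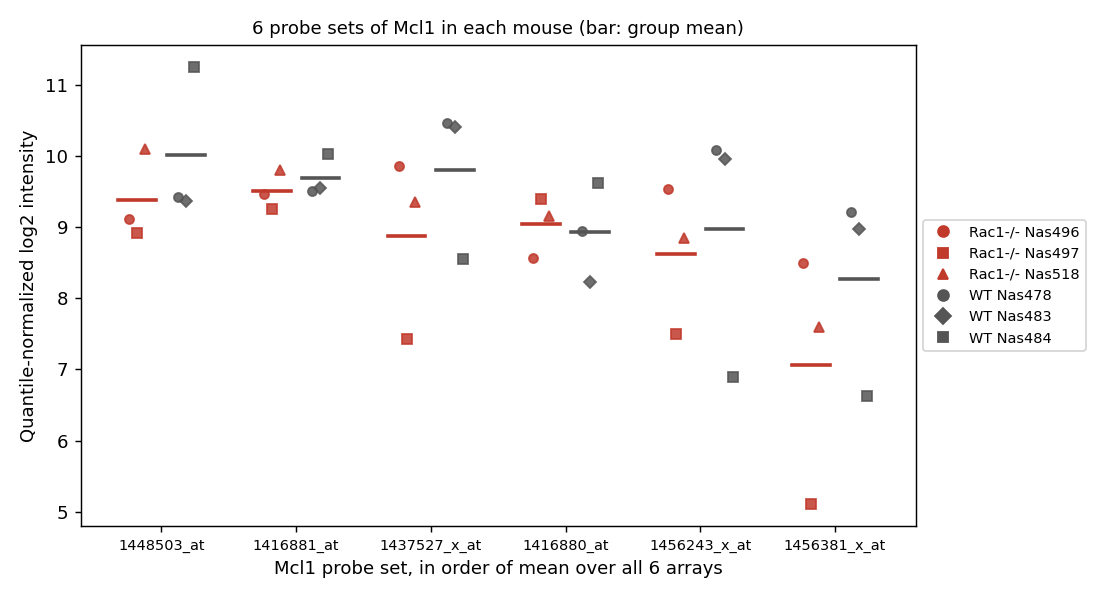
Quantile-normalized log2 intensity of the 6 probe sets of Mcl1 in each of 3 Rac1-/- mice (red, left) and 3 WT mice (grey, right), where each point is 1 mouse and each bar a group mean. The squares, Nas497 and Nas484, are the lowest of their groups on the 3 probe sets whose IDs end in x_at, with Nas497 at 5.10 on the last, and Nas484 is the highest mouse on the other 3.

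Bcl2, the founding pro-survival member, had 5 probe sets that overlapped between groups. On 1457687_at the values were 6.42, 5.42 and 6.27 in Rac1-/- glands and 5.92, 6.66 and 5.35 in WT glands. The means were 6.04 ± 0.54 (SD, n = 3) in Rac1-/- and 5.98 ± 0.66 (SD, n = 3) in WT glands, and the log2 difference was 0.061 (SE 0.55, 95% confidence interval from -1.19 to 1.32, limma adjusted p = 0.994). On the others it was 0.94 (SE 0.92), 0.69 (SE 0.57), 1.02 (SE 0.80) and, on 1437122_at, -0.46 (SE 0.46). The highest of these, on 1440770_at, came from 6.29, 4.80 and 6.35 in Rac1-/- glands and 6.11, 5.02 and 3.26 in WT glands, and it ran from 0.26 without Nas484 to 1.64 without Nas497 when single mice were left out. It was 2.40 when the actin 3' to 5' difference entered the model.

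Of the effectors among the listed genes, Bak1 is the one analysed here. On 1425716_s_at it had 7.81, 8.52 and 7.38 in Rac1-/- glands and 7.38, 7.25 and 9.71 in WT glands. Nas484 stood well above the other 5 mice. The means were 7.91 ± 0.58 (SD, n = 3) in Rac1-/- and 8.12 ± 1.38 (SD, n = 3) in WT glands, and the log2 difference was -0.21 (SE 0.74, limma adjusted p = 0.982), which was 0.60 without Nas484 and -1.23 when the actin 3' to 5' difference entered the model. On 1418991_at it had 7.17, 7.61 and 5.96 in Rac1-/- and 7.27, 7.48 and 7.003 in WT glands, a log2 fold change of -0.34 (SE 0.55). Nas484 was not high there.

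Among the other BH3-only genes, Bcl2l11, which binds all pro-survival members, had 5 probe sets that overlapped between groups. On 1435448_at the values were 7.93, 6.12 and 6.98 in Rac1-/- and 6.15, 7.69 and 6.69 in WT glands. The means were 7.01 ± 0.90 (SD, n = 3) in Rac1-/- and 6.84 ± 0.78 (SD, n = 3) in WT glands, and the log2 difference was 0.17 (SE 0.64, limma adjusted p = 0.983) that was -0.028 with a common median. The others lay below 0, at -0.25 (SE 1.08) on 1456006_at, which was -2.91 when the actin 3' to 5' difference entered the model, -0.28 (SE 0.46) on 1426334_a_at, -0.86 (SE 1.38) on 1456005_a_at and -1.61 (SE 0.9995) on 1435449_at. In the 2 lowest Nas497 stood far below the other Rac1-/- mice, with 2.49 on 1456005_a_at and 1.45 on 1435449_at, against 6.64 and 5.15 in Nas496 and 6.99 and 5.32 in Nas518. Nas497 was at the same time the highest mouse, at 8.80, on 1456006_at.

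Bad, a BH3-only protein that survival signaling holds inactive by phosphorylation, had 7.85, 7.21 and 7.23 in Rac1-/- and 7.40, 7.58 and 6.93 in WT glands on 1416582_a_at. The means were 7.43 ± 0.36 (SD, n = 3) in Rac1-/- and 7.30 ± 0.34 (SD, n = 3) in WT glands, and the log2 difference was 0.13 (SE 0.47, limma adjusted p = 0.983) that turned to -0.42 with a common median. On 1416583_at it had 7.07, 6.25 and 5.43 in Rac1-/- and 7.07, 6.56 and 7.09 in WT glands, a log2 fold change of -0.66 (SE 0.55) that stayed below 0, between -1.04 and -0.25, under the alternatives run on it. The groups overlapped on both.

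Bbc3 and Pmaip1, BH3-only genes that p53 can induce, had 1 probe set each. Bbc3 had 6.89, 5.66 and 5.76 in Rac1-/- and 6.28, 6.11 and 3.29 in WT glands. Nas484 was far below the other mice, and the log2 difference of 0.88 (SE 0.85, limma adjusted p = 0.948) was -0.096 without it, and 1.70 when the actin 3' to 5' difference entered the model. Pmaip1 had 6.14, 5.96 and 7.31 in Rac1-/- and 6.37, 5.81 and 5.75 in WT glands, with Nas518 the highest. Its log2 fold change was 0.49 (SE 0.54, 95% confidence interval from -0.74 to 1.72, limma adjusted p = 0.949) and lay between 0.071 and 1.13 under the alternatives. For both genes the groups overlapped.

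**Figure D4:**
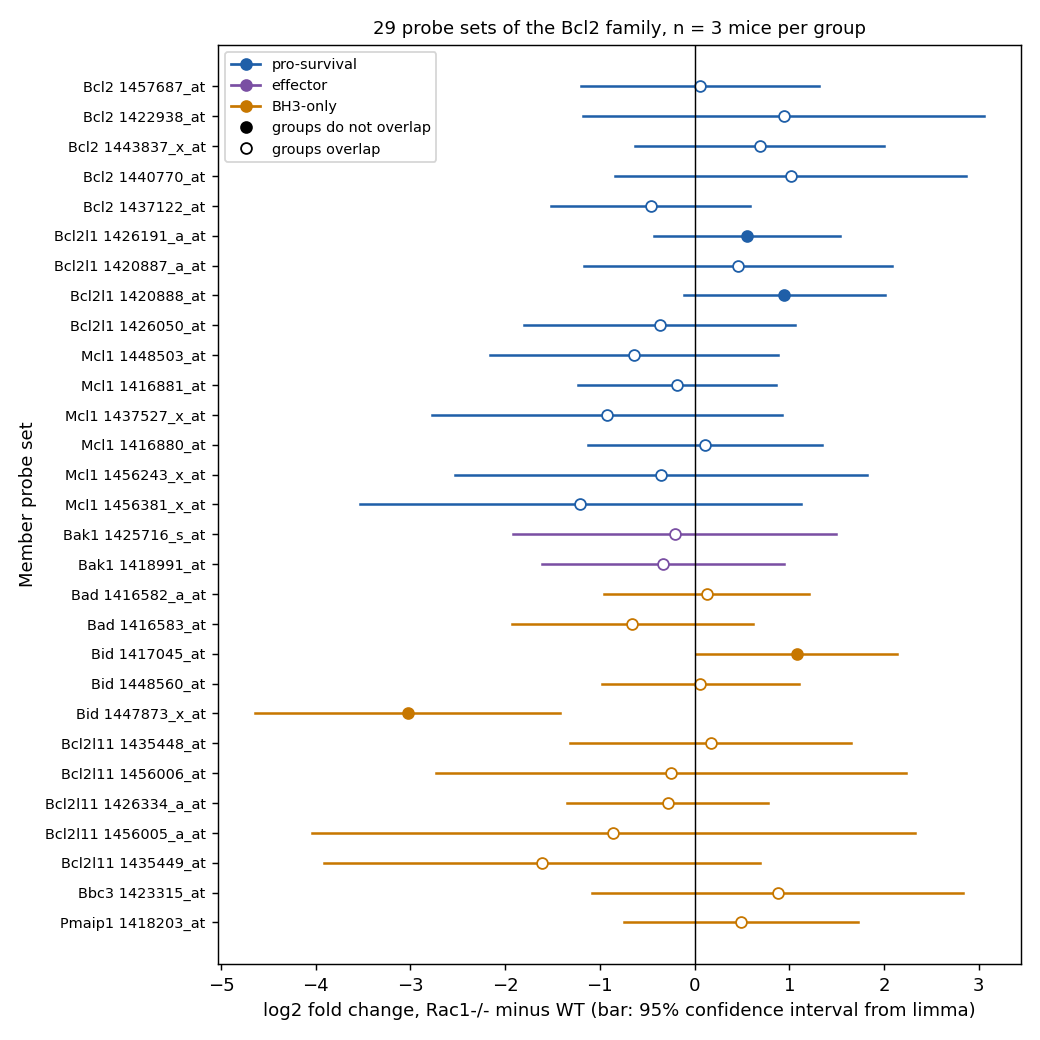
Rac1-/- minus WT log2 difference for the 29 probe sets of the Bcl2 family, 1 row per probe set, for 3 against 3 mice. Each marker gives the limma estimate with its 95% confidence interval, filled where the groups do not overlap. The estimates run from -3.03 for Bid 1447873_x_at to 1.08 for Bid 1417045_at, and only the intervals of these 2 leave out 0.

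Over the family, the fold change of several probe sets turned in sign when a single mouse was left out. On the highest-mean probe sets of the 9 genes, Nas484 had the lowest value for 4 genes and the highest for 2, and Nas497 had the lowest for 2 and the highest for 2. Neither these counts nor the turns of sign were taken over all genes, so they do not set the family apart. Deposited log2 intensities had their narrowest interquartile ranges on these arrays, 1.42 for Nas484 and 1.23 for Nas497. The range for Nas518 was close, at 1.48, and this mouse had the highest value for 1 gene and the lowest for 0. A link between range and extreme values was not tested. The mean of the 6 effector and BH3-only genes minus the mean of the 3 pro-survival genes, set relative to the WT mean, was 0.66, 0.53 and 0.095 in Rac1-/- glands and 0.19, 0.13 and -0.32 in WT glands. The Rac1-/- mice averaged 0.43 on this scale and the groups overlapped. Over all 14 effector and BH3-only and all 15 pro-survival probe sets the same quantity was -0.27, -0.26 and -0.54 in Rac1-/- glands and -0.11, 0.076 and 0.031 in WT glands, with a Rac1-/- mean of -0.36 and no overlap. The 14 include the dim Bid 1447873_x_at, with a log2 fold change of -3.03 and a mean at the 2.01st percentile of all probe sets. The direction of this difference thus turned with the choice of probe sets. Neither the difference nor the part of that dim probe set in it was tested.

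No gene of the lists around the family passed the test, against 0% of the 45037 probe sets tested. These lists were chosen with earlier results of these data known. Of 2 other pro-survival relatives with a probe set, Bcl2l10 had 0.46 (SE 0.78) as its log2 fold change and Bcl2l2 had -0.065 (SE 0.45). Of 9 further relatives, 4 lay above and 5 below 0 with a median of -0.20. Among these Hrk, a BH3-only gene best known from neurons, had a log2 fold change of 1.58 (SE 0.98), which was -0.034 when the actin 3' to 5' difference entered the model and 2.80 without normalization. Bnip3, a mitochondrial protein induced by low oxygen, had 0.32 (SE 0.47). Bik, a BH3-only protein of the endoplasmic reticulum, had -0.87 (SE 0.81). No gene of either list had an unadjusted p under 0.05 or groups that did not overlap.

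Downstream of the mitochondria, of 15 genes for released factors, caspases, their inhibitors and the voltage-dependent anion channels, 7 lay above and 8 below 0 with a median of -0.083 (-0.43 with a common median and 0.33 when the actin 3' to 5' difference entered the model), and 0 of them had an unadjusted p under 0.05. Birc5, a caspase inhibitor that also serves in cell division, had a log2 fold change of 1.15 (SE 0.80), which was 0.26 without the WT mouse Nas483 and 1.81 without the WT mouse Nas478. Vdac1, a channel of the outer membrane, had 9.52 ± 0.19 (SD, n = 3) in Rac1-/- and 10.17 ± 0.42 (SD, n = 3) in WT glands. It was the 1 gene of this list whose groups did not overlap, beside 984 of all 18193 genes above and 766 below. Cycs, the cytochrome c that is released through the pore, had 0.45 (SE 0.65), and Apaf1, the scaffold that it activates, -0.27 (SE 0.51). Cycs and Apaf1 were chosen after their values were seen.

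Of 11 genes of the p53 axis, 5 lay above and 6 below 0, with a median of -0.12 (-0.59 with a common median and 0.11 when the actin 3' to 5' difference entered the model) and again 0 at an unadjusted p under 0.05. Cdkn1a, the cell cycle inhibitor that p53 induces, had 8.64 ± 0.94 (SD, n = 3) in Rac1-/- and 7.62 ± 0.017 (SD, n = 3) in WT glands, and Sesn2, a stress-induced regulator of mTOR signaling, had 7.62 ± 0.52 (SD, n = 3) and 7.01 ± 0.20 (SD, n = 3). For these 2 every Rac1-/- value lay above every WT value, by narrow margins, beside 984 of all 18193 genes. The lowest Rac1-/- value was 7.69 for Cdkn1a and 7.28 for Sesn2, against highest WT values of 7.63 and 7.22. The log2 fold change of 1.02 for Cdkn1a was 0.15 with a common median and 0.030 when the actin 3' to 5' difference entered the model, and that of 0.60 for Sesn2 was 0.021 and, turned in direction, -0.032. Trp53inp1, another p53 target, had a log2 fold change of -0.78 (SE 0.58), which was 0.31 when the actin 3' to 5' difference entered the model. Of 21 genes that act on members of the family, 7 lay above and 14 below 0, with a median of -0.18 that was -1.02 with arrays scaled to a common median and 0.0100 without Nas484. Stat5a, a transcription factor of lactation, had 7.08 ± 0.48 (SD, n = 3) in Rac1-/- and 8.76 ± 1.39 (SD, n = 3) in WT glands, a log2 fold change of -1.68 (SE 0.73). It was the 1 gene of that list whose groups did not overlap, beside 984 of all 18193 genes above and 766 below. Nas484 stood at 10.36, far above the other WT mice, and without it the value was -0.90. Without both Nas484 and Nas497 the log2 fold change of Stat5a was -0.77. It was -2.14 with a common median, -1.67 without normalization and -1.71 when the actin 3' to 5' difference entered the model. Stat3, which drives alveolar cell death in involution, had 0.15 (SE 0.44), and was named after its value was seen.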

How the data were processed

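Mammary gland RNA of 3 Rac1-/- and 3 WT mice was hybridized to arrays. RNA was amplified by the authors with an Affymetrix protocol meant for scarce or degraded input, and the deposited values are linear intensities, 1 per probe set, with the summary method not found in the sources read. Leaving out the highest and lowest 2% of values, every array averages 100. For the tests, arrays were quantile normalized (limma 3.58.1, R 4.3.3), values under 1 were raised to 1, and log2 was taken. Without 64 control probe sets, 45037 were fitted with lmFit and eBayes, with Benjamini-Hochberg adjustment over all of them and a threshold of 0.05. Simulated data took the mean and spread of each probe set, with independent noise and no array-wide differences, and were not normalized again. They therefore cannot show whether differences between arrays bias the estimates. On these simulated data the fit estimated differences without bias. It called none of the smaller ones and missed part of the largest ones too. The simulated differences had been enlarged after a first, smaller set gave no calls, so failure to pass the threshold says little about moderate or even large changes. Symbols came from the platform annotation, and all 29 member symbols were the same in RefSeq (GRCm38.p6). A gene stood as its probe set of highest mean. No arrays were identical (0 pairs), and their small number limits precision. With 3 against 3 an exact permutation test (two-sided) has a smallest p of 0.1 and was not used. Members, lists and alternatives were chosen with earlier results of these data known. All members were named, and from each related list up to 2 genes in each direction, by smallest p, unless stated.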

Additional observations from a re-analysis of the deposited data

How the results depend on the processing

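Under 17 alternatives no member had an adjusted p under 0.05 (lowest 0.394). Of 425 recomputed member fold changes 49 took the other sign, and 7 of the 29 probe sets kept theirs throughout. In every case the cause was not tested. With arrays scaled to a common median the sign turned for Bcl2 1457687_at at -0.012, Bcl2l1 1426191_a_at at -0.28, Bcl2l1 1420887_a_at at -0.22, Mcl1 1416880_at at -0.90, Bad 1416582_a_at at -0.42 and Bcl2l11 1435448_at at -0.028. Without normalization between arrays, where the median of all probe sets was 0.37 against -0.011, the sign turned for Bcl2 1437122_at at 0.22, Bcl2l1 1426050_at at 0.077 and Mcl1 1416880_at at -0.42. With array weights the sign turned for Bak1 1425716_s_at at 0.12. With the actin 3' to 5' difference in the model the sign turned for Bcl2 1422938_at at -0.11, Bcl2l1 1420887_a_at at -0.73, Bcl2l1 1426050_at at 0.94, Mcl1 1416881_at at 0.00496, Mcl1 1437527_x_at at 0.78, Mcl1 1416880_at at -0.37, Mcl1 1456243_x_at at 1.22, Mcl1 1456381_x_at at 1.07, Bcl2l11 1456005_a_at at 2.57 and Bcl2l11 1435449_at at 0.86. Without both Nas484 and Nas497 the sign turned for Mcl1 1448503_at at 0.22, Mcl1 1416881_at at 0.11 and Bak1 1425716_s_at at 0.32. With a gene's probe sets averaged the sign turned for Bad 1416582_a_at at -0.27, Bid 1417045_at at -0.63 and Bcl2l11 1435448_at at -0.57. Leaving out single mice gave fold changes on both sides of 0 for Mcl1 1456243_x_at between -1.41 and 0.25, Bcl2l11 1435448_at between -0.28 and 0.67, Bcl2l1 1420887_a_at between -0.023 and 1.07, Mcl1 1416880_at between -0.24 and 0.45, Bcl2 1457687_at between -0.26 and 0.40, Bak1 1425716_s_at between -0.63 and 0.60, Bad 1416582_a_at between -0.081 and 0.26, Bid 1448560_at between -0.14 and 0.18, Bcl2l11 1456006_at between -1.46 and 0.62, Bbc3 1423315_at between -0.096 and 1.33, Bcl2l1 1426050_at between -0.76 and 0.24, Bcl2l11 1456005_a_at between -2.08 and 0.63, and Bak1 1418991_at between -0.75 and 0.14. Members with an unadjusted p under 0.05 numbered 2 (4.05% of all probe sets) in the values given, 1 (4.19% of all probe sets) with a floor of 10, 1 (3.97% of all probe sets) among probe sets above the median mean, 3 (3.85% of all probe sets) with a prior variance following the mean and 3 (5.54% of all probe sets) with the actin difference in the model. They numbered 1 (5.35%) without Nas496, 1 (3.28%) without Nas497, 1 (3.16%) without Nas518, 1 (2.35%) without Nas478, 1 (2.48%) without Nas483 and 3 (8.87%) without Nas484. Members whose groups did not overlap numbered 4 (9.45% of all probe sets) in the values given, 3 (10.7% of all probe sets) with a common median, 6 (9.97% of all probe sets) without normalization and 10 (39.5% of all probe sets) without both Nas484 and Nas497. They numbered 6 (22.7%) without Nas496, 5 (17.7%) without Nas497, 6 (18.4%) without Nas518, 5 (14.8%) without Nas478, 7 (15.2%) without Nas483 and 8 (29.8%) without Nas484. The member median of -0.19 was -0.42 with a common median, 0.050 without normalization and 0.39 with the actin difference in the model, and ran from -0.16 to 0.15 without single mice. Pro-death minus pro-survival members averaged 0.43 in Rac1-/- glands relative to WT with 1 probe set per gene, and -0.36 with all probe sets, an alternative chosen after seeing the data. No paired analysis was possible because the labels give the mice no shared replicate numbers.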
